A study of Mus musculus with 18 samples.

Results

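The genes of cell division and DNA replication were followed through all 18 lens libraries of the study. They are 40 genes taken by symbol, out of 40800 genes with an Ensembl identifier in the count table. By their textbook roles 19 were grouped as S-phase genes and 21 as mitosis genes. The S-phase genes were Ccne1 and Ccne2, Cdc6, Cdt1, Cdc45 and Gins2, Mcm2 to Mcm7, Pcna and Fen1, Rrm1, Rrm2 and Tyms, Uhrf1, and E2f1. The mitosis genes were Ccna2, Ccnb1, Ccnb2 and Cdk1, Aurka, Aurkb and Plk1, Cdc20, Bub1 and Bub1b, Birc5, Cenpa, Cenpe and Cenpf, Kif11, Kif20a, Kif23, Tpx2 and Nusap1, Mki67 and Top2a. The line between the groups is not sharp, since Ccna2 also acts in S phase and Mki67 and Top2a are present through most of the cycle.

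Whole lenses of C57BL/6J mice from 2 knock-in lines were sequenced, with 3 libraries per group. The Cryaa-R49C line was sampled at 2 days of age as WT, heterozygous (Cryaa-R49C-het) and homozygous (Cryaa-R49C-homo) mutants, and the Cryab-R120G line in mice 14 days old, again as WT, heterozygous (Cryab-R120G-het) and homozygous (Cryab-R120G-homo) mutants. Each mutation replaces 1 arginine of an α-crystallin, the chaperones that make up much of the lens, and is carried in the germ line, so every cell of the lens holds it. Each library pooled several lenses, the age and the line cannot be told apart, and a count per gene does not show a point mutation, so the counts do not check the genotypes.

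Cells that commit to divide release the E2F factors from the retinoblastoma family, and E2F then drives genes that license origins, make nucleotides and copy DNA. Later a complex of MuvB, B-Myb and FoxM1 drives the genes of the spindle, the kinetochore and the cyclin B kinase. In quiescent cells the DREAM complex holds both groups silent. In the lens, dividing cells are found in the epithelium, mostly in its germinative zone, while the fibre cells that fill the organ leave the cycle and later lose their nuclei. The p53 target p21, encoded by Cdkn1a, stops cyclin-dependent kinases and is one of several brakes on this program.

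The DNA words that these factors are known to bind were looked for in the promoters. Windows from 250 bases before to 50 bases after the annotated start were taken from RefSeq (GRCm38.p6), and 33 of the 40 members had one, 16 S-phase and 17 mitosis genes. They were searched on both strands for 4 E2F words (TTTCCCGC, TTTGGCGC, TTTCGCGC and TTTGCCGC), for the CHR element TTTGAA, which MuvB complexes bind, and for CCAAT, which NF-Y binds. In the Mcm6 window below, E2F words on opposite strands overlap each other. Some genes, such as Uhrf1, have more than 1 window, and a gene counts where any of its windows holds the word. Of the S-phase genes 43.8% held an E2F word, against 5.88% of the mitosis genes and 2.6% of all 27025 genes with a window. The CHR element was found for 70.6% of the mitosis genes, 18.8% of the S-phase genes and 20.2% of all. CCAAT was found for 88.2%, 62.5% and 41.1% in the same order, and CHR together with CCAAT in 70.6%, 12.5% and 8.97%. A match describes letters and not a bound site.

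The windows of 5 genes are printed 5′ to 3′ on the strand of the gene, with the searched words in capitals, because these genes carry the results. Mcm3 (chr1:20820263-20820562, minus strand) and Mcm6 (chr1:128359656-128359955, minus strand) encode subunits of the replicative helicase and hold E2F words.
Mcm3: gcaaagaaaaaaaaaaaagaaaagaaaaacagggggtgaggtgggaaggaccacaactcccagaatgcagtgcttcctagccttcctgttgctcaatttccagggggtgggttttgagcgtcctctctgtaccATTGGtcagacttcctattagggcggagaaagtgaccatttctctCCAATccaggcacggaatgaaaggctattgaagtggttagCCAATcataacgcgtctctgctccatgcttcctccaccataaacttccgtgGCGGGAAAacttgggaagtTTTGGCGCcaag
Mcm6: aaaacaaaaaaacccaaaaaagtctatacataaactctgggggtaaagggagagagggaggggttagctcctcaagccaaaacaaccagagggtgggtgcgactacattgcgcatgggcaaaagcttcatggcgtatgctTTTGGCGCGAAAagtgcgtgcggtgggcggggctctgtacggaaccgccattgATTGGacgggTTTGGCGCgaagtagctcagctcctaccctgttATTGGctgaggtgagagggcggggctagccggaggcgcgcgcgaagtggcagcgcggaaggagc
Rrm1 (chr7:102441445-102441744, plus strand) encodes the large subunit of ribonucleotide reductase and holds CCAAT but none of the E2F words.
Rrm1: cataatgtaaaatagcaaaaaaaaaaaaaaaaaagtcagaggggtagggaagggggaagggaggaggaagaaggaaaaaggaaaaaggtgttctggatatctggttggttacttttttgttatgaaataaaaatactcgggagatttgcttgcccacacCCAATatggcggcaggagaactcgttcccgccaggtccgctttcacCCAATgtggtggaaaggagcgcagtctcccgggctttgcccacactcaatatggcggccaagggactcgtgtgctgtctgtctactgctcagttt
Cdk1 (chr10:69352863-69353162, minus strand) and Ccnb1 (chr13:100786437-100786736, minus strand) encode the kinase and the cyclin that start mitosis. Cdk1 holds all 3 kinds of word and Ccnb1 only CCAAT.
Cdk1: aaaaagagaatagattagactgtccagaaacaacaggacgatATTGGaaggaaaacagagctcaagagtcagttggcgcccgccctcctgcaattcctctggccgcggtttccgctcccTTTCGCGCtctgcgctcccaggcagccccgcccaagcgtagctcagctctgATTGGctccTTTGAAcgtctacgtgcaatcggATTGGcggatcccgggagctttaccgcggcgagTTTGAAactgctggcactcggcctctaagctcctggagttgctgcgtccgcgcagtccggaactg
Ccnb1: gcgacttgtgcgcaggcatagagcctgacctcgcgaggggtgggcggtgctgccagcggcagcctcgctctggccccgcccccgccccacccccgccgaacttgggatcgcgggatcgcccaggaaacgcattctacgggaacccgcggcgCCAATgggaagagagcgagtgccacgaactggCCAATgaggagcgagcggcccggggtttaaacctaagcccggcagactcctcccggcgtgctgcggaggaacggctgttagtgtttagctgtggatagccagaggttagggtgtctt

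The 18 libraries held 14272174 to 29639719 counts. The members took 0.0267% to 0.0791% of the counts in the 2-day-old lenses and 0.00281% to 0.00562% in the 14-day-old lenses. Scaling factors (TMM) were 1.2 to 2.27 at 2 days and 0.488 to 0.774 at 14 days, so levels below are CPM, counts scaled to a common library total. The Cryaa-R49C-homo 1 library stood apart: the gene model Gm42418 took 2.53% of its counts, against 11.9% to 42.6% in the other 8 libraries of the line. Lens fibre marker sums were 28300 to 431300 CPM over the 18 libraries and lens epithelium marker sums 261 to 605 CPM, and the fibre marker Lim2 was listed at 0 in each group. Retinal progenitor markers, which dividing retina would bring, summed to 10.2 to 19.7 CPM at 14 days and to 29.3 to 78.9 CPM at 2 days. They were highest in the libraries Cryaa WT 3 and Cryaa-R49C-het 3. In whole-lens RNA fewer dividing cells and less RNA per dividing cell cannot be told apart.

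In the 2-day-old WT lenses the members were low but measurable. Per kilobase of exon the highest were Ccnb2 (4.15 ± 1.2 CPM per kb; SD, n = 3), Top2a (3.44 ± 0.6), Rrm2 (3.38 ± 1.1), Pcna (2.67 ± 0.52), and Cdc20 and Mki67 at 2.27 and 2.11. Each of these differed from the next by less than the larger SD of the pair. Fen1, the nuclease that trims Okazaki fragments, had 0 to 14 counts per library and was the 1 member that did not pass the filter on low counts. Gm10143, on the opposite strand, covers 78.8% of its exon bases (chromosome 19, 10199132 to 10204169), and how the counting treated strand is not given in the sources used here, so its level is not read.

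**Figure D1:**
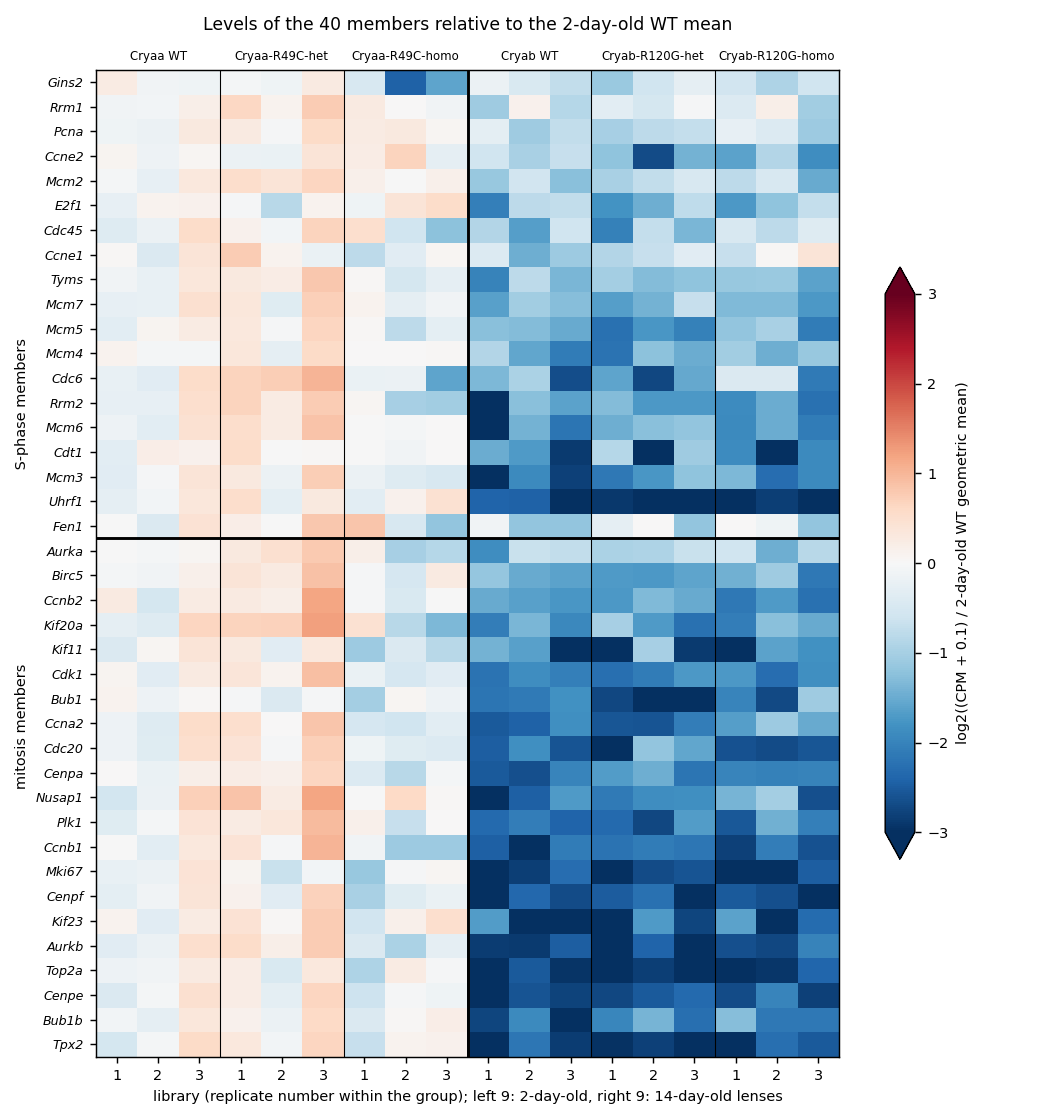
Level of each of the 40 members (rows; S-phase genes above the line, mitosis genes below) in each of the 18 libraries (columns), as log2 of CPM plus 0.1 relative to the mean log2 value of the 2-day-old WT libraries; colours saturate at 3 on either side, which 38 cells fall below. The 14-day-old libraries on the right are blue in most rows, while Gins2, Rrm1 and Pcna are among the palest.

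The first question was how the members differ between the WT lenses of the 2 ages. Most members were lower in the 14-day-old lenses. Top2a, which untangles chromosomes, is a clear case. It measured 27.4, 28.3 and 37.2 CPM in the 2-day-old WT libraries and 2.64, 5.27 and 3.93 CPM in the 14-day-old ones. The groups did not overlap, and the fall was 7.72-fold (log2 -2.95 ± 0.32 SE, adjusted p = 1.06e-06, edgeR quasi-likelihood test with Benjamini-Hochberg adjustment over 13938 genes, as for every adjusted p here).

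To be tested at all a gene had to reach the count minimum in 3 libraries. Among the members 11 reached it only at 2 days, a choice that itself favours a fall: Ccne1, Cdc6, Cdt1 and Uhrf1, and Ccnb1, Aurkb, Plk1, Bub1, Bub1b, Kif20a and Kif23. The count is therefore given over the 28 members that reached it at both ages. Of these, 14 of 14 mitosis members and 9 of 14 S-phase members were lower at an adjusted p of at most 0.05, and none was higher. Over all genes tested 11.5% were lower and 11.7% higher. The median log2 fold change was -2.43 for the 14 mitosis members and -1.22 for the 14 S-phase members, against -0.065 for all genes.

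**Figure D2:**
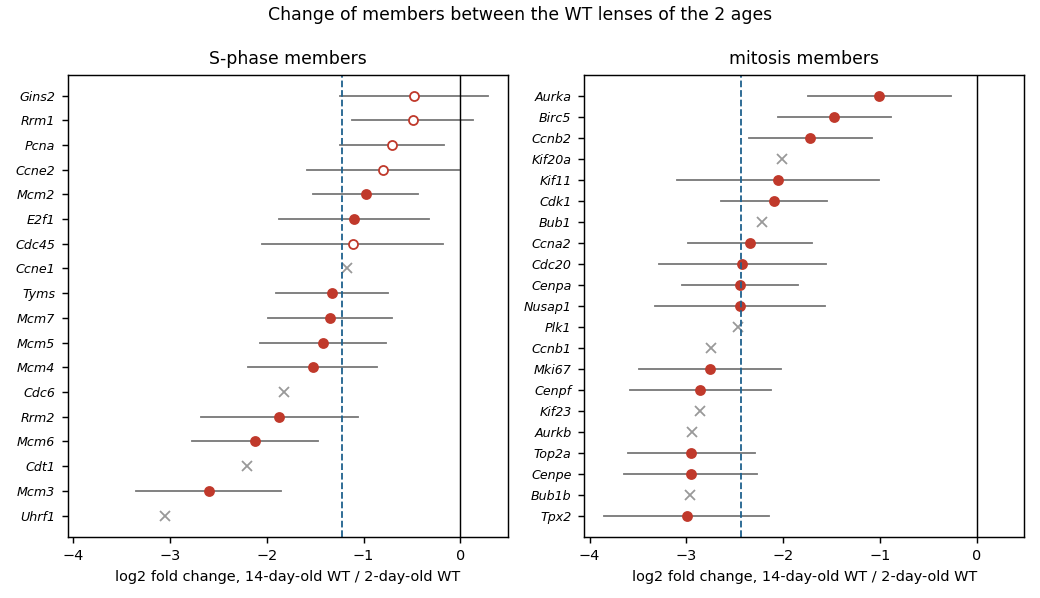
Log2 fold change of each tested member between 14-day-old and 2-day-old WT lenses. Points with 95% intervals (lines) are the 28 members that reached the count minimum at both ages, filled at an adjusted p of at most 0.05, with their median dashed (-1.22 for S-phase and -2.43 for mitosis members), and grey crosses are the 11 that reached it only at 2 days, for which no call is shown.

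Among the mitosis members that reached the count minimum at both ages, Tpx2, which nucleates spindle microtubules, went from 4.86, 6.69 and 10.5 CPM to 0.22, 1.47 and 0.89 CPM (log2 -3.00 ± 0.41, adjusted p = 2.2e-05; -3.60 without Cryab WT 2). Cenpe, a kinetochore motor, went from 7.54, 9.79 and 14.4 CPM to 0.991, 1.6 and 1.41 CPM (log2 -2.96 ± 0.33, adjusted p = 1.82e-06). In both genes the highest 14-day-old library lay well under the lowest 2-day-old one. Cenpf, another kinetochore protein, changed by log2 -2.85. Bub1b, a checkpoint kinase, Aurkb, the kinase of the chromosomal passenger complex, and Kif23, a motor of the midbody, measured log2 -2.96, -2.94 and -2.86, but these 3 reached the minimum only at 2 days. Bub1b ran from log2 -3.9, without Cryab WT 2, to -2.5, without Cryab WT 3. Kif11 and Kif20a, motors of the spindle and of cytokinesis, measured log2 -2.05 and -2.01, the second also tested only through the 2-day-old libraries.

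The proliferation marker Mki67 fell 6.74-fold, from 17.8, 18.3 and 27.5 CPM to 2.31, 2.87 and 4.16 CPM. Of the cyclin B kinase, Cdk1 went from 10.1, 7.46 and 11.5 CPM to 1.98, 2.54 and 2.23 CPM (log2 -2.09 ± 0.27, adjusted p = 8.7e-06) and Ccnb2 changed by log2 -1.72. Ccnb1 measured 2.85, 2.26 and 3.61 CPM at 2 days and 0.441, 0.267 and 0.594 CPM at 14 days, but it reached the minimum only at 2 days, so its log2 value of -2.75 is only described. The mitosis member that changed least was Aurka, the centrosomal kinase, at 3.02, 2.94 and 3.19 CPM against 0.771, 1.87 and 1.78 CPM (log2 -1.01 ± 0.36, adjusted p = 0.0443), and its call was lost in each of the 6 fits that left out 1 library. Birc5, which encodes survivin of the passenger complex, was next at log2 -1.47.

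Among the S-phase members Uhrf1, which guides maintenance methylation behind the fork, reached the minimum only at 2 days and is only described. Its levels were 2.73, 3.14 and 4.24 CPM at 2 days and 0.551, 0.534 and 0.148 CPM at 14 days. The 14 S-phase members that reached it at both ages ran from log2 -2.60 in Mcm3 to -0.48 in Gins2, and the 14 mitosis members from -3.00 to -1.01. Next to Gins2 stood Rrm1, with 9.84, 10 and 11.9 CPM at 2 days and 4.96, 11.6 and 5.79 CPM at 14 days. Its groups overlapped, and the change did not pass the test (log2 -0.49, 95% interval -1.12 to 0.14, adjusted p = 0.255).

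The 6 helicase subunits Mcm2 to Mcm7 form 1 ring in equal parts. The measured changes of their transcripts ran from log2 -2.60 to -0.98, and differences between subunits were not tested. Mcm3 went from 4.98, 6.15 and 8.27 CPM to 0.661, 1.6 and 0.816 CPM (log2 -2.60 ± 0.36), and Mcm6 changed by log2 -2.12 ± 0.32. Mcm2 went from 7.07, 6.18 and 9.14 CPM to 3.31, 4.94 and 3.04 CPM (log2 -0.98 ± 0.26). The 95% intervals of Mcm2 (-1.52 to -0.44) and Mcm3 (-3.35 to -1.85), the extremes of the 6, did not overlap. The call of Mcm2 was lost without Cryaa WT 3 and without Cryab WT 3. Mcm4, Mcm5 and Mcm7 lay between them, at log2 -1.53, -1.42 and -1.35.

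The licensing factors Cdt1 and Cdc6 measured log2 -2.20 and -1.83, both from low levels (1.36 to 1.99 and 0.777 to 1.51 CPM in 2-day-old WT lenses) and both tested only through the 2-day-old libraries. The call of Cdc6 was lost in 4 of the 6 fits without 1 library, namely without any 1 of Cryaa WT 1, Cryaa WT 3, Cryab WT 1 and Cryab WT 3. Its value ran from log2 -2.49, without Cryab WT 2, to -1.35, without Cryab WT 3. Of the enzymes that supply nucleotides, Rrm2, the subunit of ribonucleotide reductase that is made in S phase, fell 3.65-fold and Tyms, thymidylate synthase, 2.51-fold. Pcna, the sliding clamp, did not pass the test (log2 -0.70, 95% interval -1.24 to -0.17, adjusted p = 0.0531), and neither did Gins2 (log2 -0.48, interval -1.24 to 0.29), Ccne1 (-1.17), Ccne2 (-0.80) or Cdc45 (-1.11). E2f1 itself changed by log2 -1.10 (adjusted p = 0.0381), a call that 5 of the 6 fits without 1 library lost.

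The mutant libraries were then included. In 22 of the 28 members that reached the count minimum at both ages, 12 mitosis and 10 S-phase members, each of the 9 libraries of 2-day-old lenses lay above each of the 9 of 14-day-old lenses. This held for 5.2% of all genes tested. The values that follow cover all 40 members, with Fen1 and those that reached the count minimum only at 2 days, and carry no test. The mean log2 level of the mitosis members minus that of the S-phase members was 0.24 to 0.83 in the 2-day-old libraries. In the 14-day-old ones it was -0.49 to 0.06, with no overlap. At 14 days the S-phase members still summed to 32.1 to 47.7 CPM and the mitosis members to 23.4 to 34.0 CPM, from 78.2 to 144.5 and 107 to 244 CPM at 2 days. So the mitosis sum was the larger in each 2-day-old library, and in the 14-day-old libraries the S-phase sum was the larger or, in Cryab-R120G-homo 3, equal to it at 32.1 CPM.

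**Figure D3:**
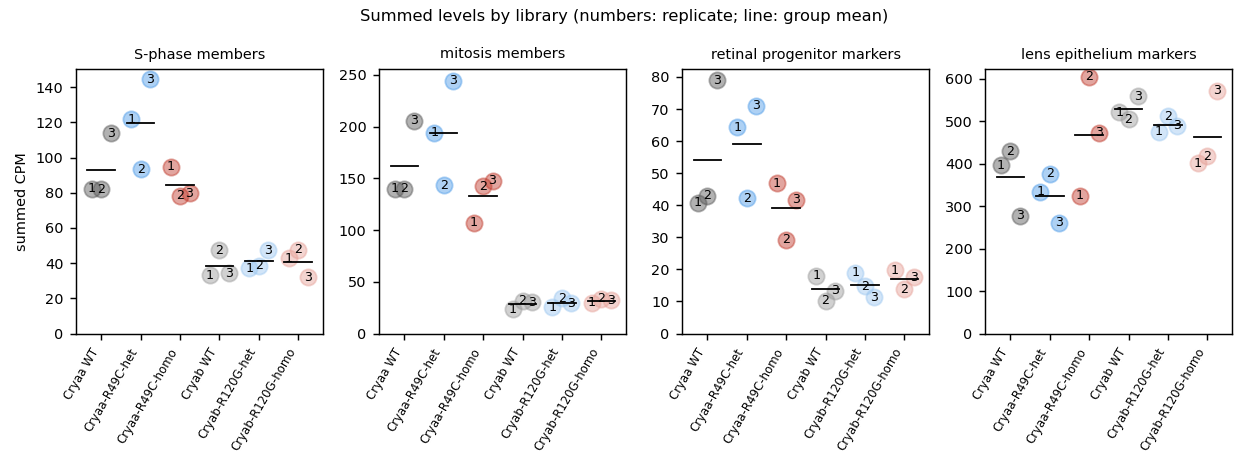
Summed CPM of the S-phase members, the mitosis members, 8 retinal progenitor markers and 10 lens epithelium markers in each library (numbered points, by group; line, group mean; each axis starts at 0). The member sums and the retinal sum are lower in the 14-day-old groups, and the lens epithelium sum, most of which is Sfrp1, is not.

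Markers moved with this difference. Retinal progenitor sums were 40.9 to 78.9 CPM in the 2-day-old WT and 10.2 to 17.96 CPM in the 14-day-old WT libraries. All 8 markers were detected in both, and 5 of the 7 tested ones were called lower. Sox2 did not fall, at 6.52, 8.95 and 7.01 CPM at 2 days and 10.8, 9.14 and 10.7 CPM at 14 days. It made up most of the 14-day-old WT sums. Atoh7 was detected at 14 days only in Cryab WT 1, at 0.11 CPM. Lens fibre markers moved up, with 8 of 11 called higher at 14 days, a median log2 fold change of 1.72, and sums of 68100 to 102600 and 386800 to 431300 CPM. Lens epithelium sums were 278 to 430 and 505 to 558 CPM, but most of that was 1 gene, Sfrp1 (159 to 294 and 378 to 411 CPM). The other 9 epithelium markers summed to 119 to 136 and 113 to 147 CPM, and of the 8 tested in the list 2 were higher and 1 lower. Macrophage and microglia markers were lower too, all 9 of them, with sums of 8.78 to 18.6 and 0.534 to 2.42 CPM. Pigment and ciliary epithelium markers summed to 18.6 to 36.0 and 6.61 to 8.31 CPM, and vessel and mesenchyme markers to 43.2 to 64.1 and 162 to 190.6 CPM, but the rise was that of Acta2 (8.16 to 11.7 and 144.1 to 174.9 CPM), and the other 9 summed to 32.15 to 55.95 and 15.7 to 17.96 CPM. Photoreceptor markers went the other way from the retinal progenitor ones, with sums of 8.17 to 34.0 CPM at 2 days and 22.3 to 819 CPM at 14 days. Their part in the result was not tested. Without the day-2 libraries over 70 CPM of retinal markers, a choice made after seeing the data, 20 of the 28 members that reached the count minimum at both ages were lower, 13 mitosis and 7 S-phase, against 5.37% of all genes in that fit, and their medians were -1.04 for S-phase and -2.06 for mitosis members.

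The S-phase members were also described by their promoter words, a split that was chosen after the changes were seen and carries no test. Of the S-phase members that reached the count minimum at both ages, 4 had an E2F word (Mcm3, Mcm5, Mcm6 and Mcm7), with a median log2 fold change of -1.77 (range -2.60 to -1.35), and 7 had none, with a median of -1.10 (range -1.87 to -0.49). Ccne2, Mcm4 and Gins2 had no promoter window and are not in the split. Among all 472 tested genes with an E2F word 18% were lower and the median was -0.25, against 11.3% and -0.06 of the 9855 without.

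Other genes of the cycle, from lists that hold none of the members, were measured beside them. Of 54 other mitosis genes 42 were lower at 14 days and 1 was higher, with a median log2 fold change of -2.11, and of 44 other replication genes 21 were lower and 2 higher, with a median of -0.83. Over all genes tested 11.5% were lower and 11.7% higher. The count minimum favours a fall in these lists as in the members. Their counts were not restricted to genes that reached it at both ages, so they are only described. Clspn (claspin) of the replication checkpoint and the chromosome motor Kif4, which reached the minimum in 3 libraries only at 2 days and are only described, went from 2.04 to 2.94 and 2.6 to 3.43 CPM to 0.11 to 0.223 and 0.22 to 0.4 CPM. The genes that were higher were Pttg1 (securin, log2 1.31), Rpa1 of the single-strand binding complex (1.48) and Dbf4, the activator of the Cdc7 kinase (0.89), values that fall below 0 when libraries are scaled by their totals alone, since that scaling lowers all genes together (median from -0.07 to -1.61). Of 15 E2F, DREAM and MuvB regulators 6 were lower, a count that includes genes tested only through the 2-day-old libraries and is only described. Among these the repressors E2f7 and E2f8 (log2 -3.48 and -2.94) and Mybl2, which encodes B-Myb (log2 -2.73), were tested only through the 2-day-old libraries. Of the 6 G1 cyclins and kinases Ccnd1 (log2 -1.62) and Cdk2 (-1.78, and -2.58 without Cryab WT 2) were lower.

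The second question was whether the αA-crystallin mutation changes the members at 2 days. In Cryaa-R49C-het lenses 36 of 39 tested members lay above WT, but none passed the test in either direction with edgeR, DESeq2 or the likelihood-ratio test. Over all genes 0% were called higher and 0.00717% lower, and 48.7% lay above WT. The median log2 fold change was 0.27 for S-phase and 0.43 for mitosis members, and 3 members had an unadjusted p under 0.05 (Ccnb2, Birc5 and Mcm2), against 5.09% of all genes. In 5 members, Cdc6, Aurka, Birc5, Kif20a and Mcm2, the 3 het libraries lay above the 3 WT libraries, against 9.57% of all genes. Kif20a, a motor of cytokinesis, is the largest of these at 1.41, 1.28 and 2.73 CPM in WT and 2.78, 2.81 and 4.16 CPM in het lenses (log2 0.84, 95% interval -0.03 to 1.72, adjusted p = 0.836). Fits that left out 1 library kept both medians above 0, at 0.15 to 0.52 for S-phase and 0.19 to 0.60 for mitosis members.

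In Cryaa-R49C-homo lenses 1 of 39 members differed from WT, the origin firing factor Gins2, while 4.91% of all genes were lower and 4.87% higher. Gins2 measured 4.34, 3.34 and 3.29 CPM in WT and 2.58, 0.597 and 1.14 CPM in homo lenses. The groups did not overlap, as in 12.6% of all genes in this direction, and the log2 fold change was -1.31 ± 0.36 (adjusted p = 0.0214). Leaving out 1 library moved it from -2.09, without Cryaa-R49C-homo 1, to -0.94, without Cryaa-R49C-homo 2. The call was lost when any 1 of the libraries Cryaa WT 1, Cryaa-R49C-homo 2 and Cryaa-R49C-homo 3 was left out (adjusted p = 0.0958, 0.103 and 0.0806), in the fit on the 9 libraries of the line (0.0692) and in that on the 6 libraries compared (0.155). Gse1, on the opposite strand, covers 67.3% of the exon bases of Gins2 (chromosome 8, 120578633 to 120589304), and itself measured log2 -0.60 (95% interval -1.68 to 0.48). The study counted only uniquely aligned reads that were unambiguous, and the strand setting is not given in the sources used here. If strand was ignored, reads in the shared bases would be dropped, and the Gins2 counts would come from its other exon bases.

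The other 38 members did not pass the test between Cryaa-R49C-homo and WT lenses, and for 24 of the 39 the 95% interval lay within a log2 change of 1 on either side. The medians were -0.09 for S-phase and -0.32 for mitosis members, and they became 0.24 and 0.00 when libraries were scaled by their totals alone, which moved the median of all genes to 0.41. Within the homo group the members did not move together. Mki67 was 9.38 CPM in Cryaa-R49C-homo 1 and 20.1 and 21.7 CPM in the other 2 libraries, and Top2a 16.0 against 36.3 and 29.9 CPM. Ccnb1 went the other way, at 2.64 CPM against 1.29 CPM in each of the others, as did Gins2, Rrm2 (9.51 against 4.50 and 4.33 CPM) and Kif20a (2.38 against 0.911 and 0.608 CPM). Without that library 5 members were called lower than WT, in a fit that called 12.3% of all genes lower.

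**Figure D4:**
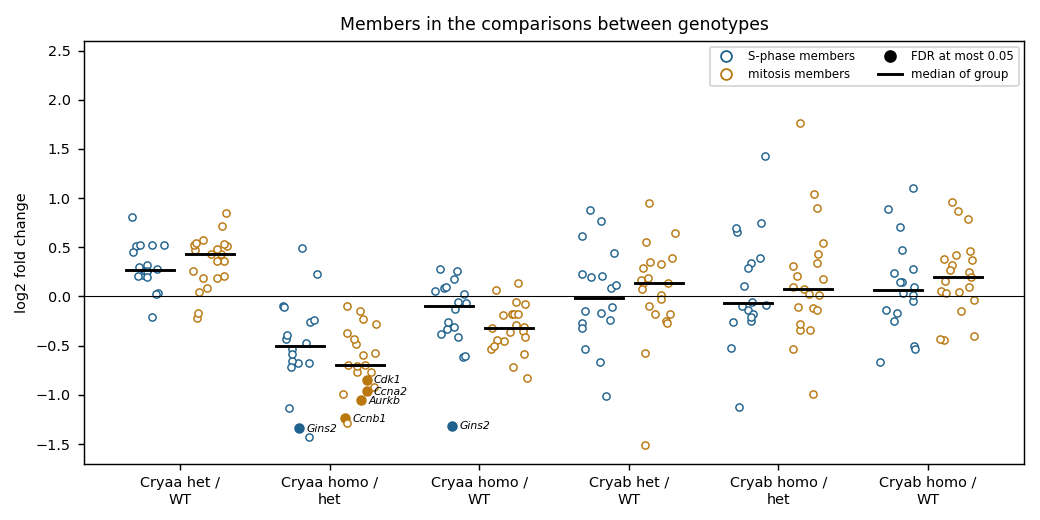
Log2 fold change of each tested member (points; blue S-phase, brown mitosis) in the 6 comparisons between genotypes; filled, labelled points have an adjusted p of at most 0.05 and the bars are group medians. Medians lie above 0 for Cryaa-R49C-het over WT and below 0 for Cryaa-R49C-homo over het, and the Cryab-R120G comparisons hold no filled point.

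Between the 2 mutant genotypes of the Cryaa line 5 of 39 members were lower in homo than in het lenses and none was higher, while 3.63% of all genes were lower and 4.69% higher. They were Ccna2, Ccnb1, Cdk1, Aurkb and Gins2. Ccna2, the cyclin of S phase and G2, measured 11.4, 8.06 and 14.2 CPM in het and 5.64, 5.28 and 6.39 CPM in homo lenses (log2 -0.96 ± 0.27, adjusted p = 0.0269). Ccnb1 measured 3.81, 2.78 and 5.86 CPM in het and 2.64, 1.29 and 1.29 CPM in homo lenses (log2 -1.24 ± 0.34, adjusted p = 0.0256). For both, each het library lay above each homo library, if narrowly for Ccnb1.

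Cdk1 measured 12.4, 10.2 and 17.9 CPM in het and 8.30, 6.66 and 7.53 CPM in homo lenses (log2 -0.85 ± 0.24, adjusted p = 0.0278). Aurkb changed by log2 -1.06 ± 0.33 (adjusted p = 0.0486) and Gins2 by -1.34 ± 0.36 (adjusted p = 0.0216; -2.12 without Cryaa-R49C-homo 1). In 17 of 39 members the 3 homo libraries lay below the 3 het libraries, against 10.5% of all genes. Of the 39 members 37 were lower, against 48.3% of all genes, and 20 had an unadjusted p under 0.05, against 23.7% of all genes. The medians were -0.50 for S-phase members, -0.70 for mitosis members and 0.024 for all genes.

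In these 5 genes the WT mean lay between the mutant means, and the comparisons within the line share libraries. The 5 calls did not hold in several fits. None was left without Cryaa-R49C-het 1, without Cryaa-R49C-het 3 or without Cryaa-R49C-homo 2. Without Cryaa-R49C-homo 3, 1 other member, Cenpa, was called, where 1.84% of all genes were lower. Without Cryaa-R49C-homo 1, 14 were called, with all 5 among them, in a fit that called 15.3% of all genes lower. None was called in the fit on the 9 libraries of the line, where the 5 adjusted p-values were 0.0545 to 0.0793, in the fit on the 6 libraries compared, with libraries scaled by their totals alone, or without the 2 libraries over 70 CPM of retinal markers. The log2 fold changes of the 5 were -1.35 to -0.84 with the 6 libraries, -1.33 to -0.84 with the 9, and -1.21 to -0.59 without those 2 libraries. With the replicate number as a block 7 were called, where 4.63% of all genes were lower.

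Markers moved with these levels too. In the 2-day-old lenses the 3 highest retinal progenitor sums, 78.9, 71.0 and 64.3 CPM, were those of Cryaa WT 3, Cryaa-R49C-het 3 and Cryaa-R49C-het 1, and the same libraries had the 3 highest mitosis sums, 206, 244 and 194 CPM. The homo libraries had retinal sums of 46.9, 29.3 and 41.8 CPM, of which Sox2 held 5.97, 13.6 and 14.9 CPM. In the 3 libraries named above Sox2 was at 7.01, 6.33 and 7.49 CPM. Lens epithelium sums were 278, 261 and 334 CPM in those 3 libraries and 324, 605 and 472 CPM in the homo libraries. Without Sfrp1 they were 119, 106.5 and 112.6 CPM against 99.9, 119.9 and 117 CPM, and no epithelium marker was called. Macrophage and microglia markers summed to 41.2 and 40.3 CPM in Cryaa-R49C-homo 2 and 3, against 8.78 to 19.4 CPM in the other 2-day-old libraries. Vessel and mesenchyme markers summed to 103.8 and 89.3 CPM in the same 2 libraries and to 38.6 to 64.1 CPM in the others. Pigment and ciliary epithelium markers summed to 9.73 to 15.2 CPM in homo, 18.4 to 22.01 CPM in het and 18.6 to 36.0 CPM in WT lenses. Of 11 tested lens fibre markers 5 were lower in homo than in WT and 3 lower than in het lenses. The part of these markers in the results was not tested.

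The brakes of the cycle were read from a list of 15 genes. Of 13 tested brakes 3 rose in Cryaa-R49C-homo over WT and none fell, while 4.87% of all genes were higher and 4.91% lower. Cdkn1a measured 1.36, 1.25 and 2.38 CPM in WT, 1.91, 0.822 and 2.57 CPM in het and 35.3, 26.9 and 26.2 CPM in homo lenses, 17.6-fold over WT (log2 4.14 ± 0.64, adjusted p = 0.000662). Gadd45a, a stress gene induced by p53, measured 4.47, 4.76 and 2.70 CPM in WT and 14.7, 21.8 and 22.2 CPM in homo lenses (log2 2.30 ± 0.26, adjusted p = 3.67e-06). Ccng1, cyclin G1, another p53 target, measured 35.0, 39.98 and 23.8 CPM in WT and 101, 204 and 143 CPM in homo lenses (log2 2.18 ± 0.28, adjusted p = 1.86e-05). No homo library overlapped WT or het in these 3 genes, a pattern that was not counted over all genes. Each kept its call in all 6 fits that left out 1 library.

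Of the other brakes Cdkn1c (p57), which fibre cells use to leave the cycle, was higher in homo than in het lenses (log2 0.99, adjusted p = 0.0366), a call that 5 of 6 fits without 1 library lost. Cdkn1b, Rb1, Rbl1, Rbl2, Cdkn2c, Cdkn2d, Btg1, Btg2 and Ccng2 did not pass the test between homo and WT lenses, and Cdkn2a and Cdkn2b were too low to test. On the side that starts the cycle, 2 of 6 G1 cyclins and kinases were lower in homo than in WT lenses, against 4.91% of all genes. Ccnd1 measured 47.7, 51.3 and 89.5 CPM in WT and 37.9, 32.6 and 37.0 CPM in homo lenses (log2 -0.81, adjusted p = 0.0485), and Cdk6 4.17, 4.32 and 7.15 CPM and 2.67, 1.67 and 2.24 CPM (log2 -1.25, adjusted p = 0.0075). Ccnd1 lost its call in 4 of the 6 fits without 1 library (without Cryaa WT 2, Cryaa WT 3, Cryaa-R49C-homo 2 or Cryaa-R49C-homo 3), with adjusted p up to 0.315, and Cdk6 in the 1 without Cryaa WT 3 (0.0645). Both lost it with libraries scaled by their totals alone, in the fit on the 6 libraries compared (adjusted p = 0.206 and 0.0605) and without the 2 libraries over 70 CPM of retinal markers (log2 -0.47 and -0.95, adjusted p = 0.297 and 0.0825), and Ccnd1 also in the fit on the 9 libraries of the line (0.169).

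The other cycle genes were read in the same comparison. Of 44 other replication genes 2 rose and none fell between Cryaa-R49C-homo and WT lenses, where 4.87% of all genes were higher and 4.91% lower. Timeless, of the fork protection complex, measured 4.64, 5.47 and 5.32 CPM in WT and 23.3, 29.5 and 44.6 CPM in homo lenses (log2 2.65 ± 0.65, adjusted p = 0.0198). The groups did not overlap, yet 4 of the 6 fits without 1 library lost the call. Rfc1, the large subunit of the clamp loader, rose 1.83-fold (adjusted p = 0.00894), a call lost without Cryaa WT 1 and without Cryaa-R49C-homo 2.

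Of 54 other mitosis genes Pttg1 rose (log2 0.68) and Ncapg, of condensin, fell (log2 -1.02), each losing its call in 4 of the 6 fits. Between homo and het lenses 7 of the 54 other mitosis genes were lower and none higher, against 3.63% and 4.69% of all genes, with Pbk at log2 -1.23, Ncapg at -1.17 and Cdca3 at -1.05 as the largest. These calls were lost in 3, 4 and 4 of the 6 fits without 1 library. Of the 15 E2F, DREAM and MuvB regulators none was called in any comparison between Cryaa genotypes.

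**Figure D5:**
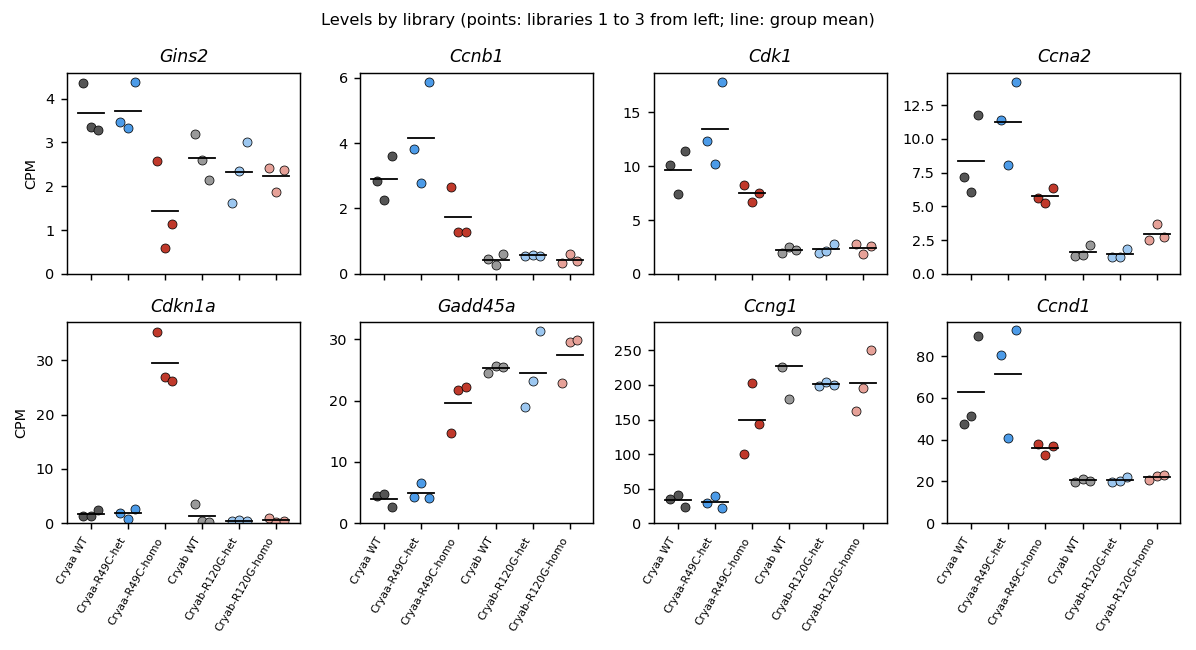
CPM of 4 members (Gins2, Ccnb1, Cdk1, Ccna2) and 4 genes of the brakes and G1 lists (Cdkn1a, Gadd45a, Ccng1, Ccnd1) in each library (points) with the group mean (line); each axis starts at 0. Cdkn1a is at 26.2 to 35.3 CPM in the 3 Cryaa-R49C-homo libraries and at most 3.52 CPM in the other 15.

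Gadd45a and Ccng1 were also high in the 14-day-old WT lenses, at 24.6 to 25.7 and 180 to 278 CPM, where Cdkn1a was not (0.223 to 3.52 CPM). Between the WT lenses of the 2 ages Gadd45a, Ccng1 and Cdkn2c (p18) were the brakes that were higher at 14 days (log2 2.67, 2.79 and 2.37), and Rbl1 (p107) was the 1 that was lower (log2 -1.52).

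The third question was whether the αB-crystallin mutation changes the members at 14 days. None of the 39 tested members was called between any genotypes of the Cryab line. Nor were many genes in all: 0.0287% were higher and 0.0215% lower in Cryab-R120G-homo than in WT lenses, 0.00717% higher and 0% lower in het than in WT lenses, and 0% either way between homo and het lenses. Members with an unadjusted p under 0.05 numbered 2, 5 and 3 in these comparisons, against 6.1%, 3.82% and 1.97% of all genes. The precision was limited, with a median half-width of the 95% intervals of 0.80 on the log2 scale, and for 15 of 39 members the homo over WT interval lay within a log2 change of 1. The count was also 0 with DESeq2 and with the likelihood-ratio test.

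Ccna2 was the member with the smallest unadjusted p between Cryab-R120G-homo and WT lenses. It measured 1.32, 1.4 and 2.15 CPM in WT, 1.26, 1.24 and 1.82 CPM in het and 2.49, 3.69 and 2.75 CPM in homo lenses. The homo libraries lay above the others, but the difference did not pass the test (log2 0.86, 95% interval 0.20 to 1.53, adjusted p = 0.654). S-phase sums were 33.1 to 47.4 CPM in WT, 37.2 to 47.4 in het and 32.1 to 47.7 in homo lenses, and mitosis sums 23.4 to 31.6, 25.6 to 34.0 and 29.9 to 33.8 CPM, so the genotypes overlapped in both. Photoreceptor markers ranged from 22.3 to 1226 CPM over these 9 libraries.

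The change between homo and WT lenses was then compared between the lines in 1 model. None of the 39 members passed the test (3 had an unadjusted p under 0.05, against 15.4% of all genes), while 1.16% of all genes had a higher and 1.75% a lower change in the Cryaa line. The closest was again Ccna2, which was lower in Cryaa-R49C-homo and higher in Cryab-R120G-homo lenses (difference of log2 changes -1.40, 95% interval -2.26 to -0.53, adjusted p = 0.0765). DESeq2 called none. The likelihood-ratio test called 2 members lower, where 7.02% of all genes were lower, and the replicate block 1, where 2.28% were. The interval of a single member had a median half-width of 1.09.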

How the data were processed

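Lens RNA was made into poly-A libraries with a Clontech kit and read as single 50-base reads. Per the labels and the study's methods, the authors used CASAVA 1.8, aligned with STAR 2.0.4b to GRCm38 with Ensembl annotation, counted reads per gene with featureCounts 1.4.5 and deposited raw counts per gene for all 18 libraries. The counting's strand setting is not given in the sources used here. The genotype field of the 6 Cryab mutant libraries names the other line, and groups were taken from the titles.

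Counts were fitted in 1 model of 6 groups with edgeR 4.0.16 in R 4.3.3 (TMM, robust quasi-likelihood test). The filter kept 13938 genes with about 10 counts in 3 libraries. Genes were called at a Benjamini-Hochberg adjusted p of at most 0.05. CPM used TMM-scaled totals. DESeq2 1.42.0, the likelihood-ratio test, other scalings, filters and sample sets, a replicate block and leaving out each library were tried. The members and lists were chosen with earlier results of these data known. All 40 members are reported, and of other lists at most the 3 largest called changes each way, plus the brakes and G1 genes. The statistics were tested on simulated data.

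Replicates of a group differed beyond sampling noise. The labels do not say that replicate numbers mark a shared litter. Deviations of same-numbered libraries correlated above 0.1 in all pairs only for Cryab-R120G-homo and WT (0.277, 0.176 and 0.156), and the block left that count at 0. For Cryaa-R49C-het and WT the values were -0.046, 0.331 and 0.481. Such values do not show that libraries are paired. Libraries are pools, and p-values measure the spread between pools. Totals were 14272174 to 24639638 counts at 2 days and 17478028 to 29639719 at 14 days. The members held 5216 to 15595 and 512 to 1481 of these per library, which limits precision at 14 days. Intervals are at 95% confidence.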

Additional observations from a re-analysis of the deposited data

Results flagged for a closer look

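The change from WT to homozygous mutant lenses differed between the Cryaa and the Cryab line in 5 genes of the cell cycle lists, by a test of the difference itself (edgeR quasi-likelihood interaction, adjusted over 13938 genes). None was 1 of the 40 members. Cdkn1a had a log2 change 5.39 higher in the Cryaa line (adjusted p = 0.011). In the Cryab line its levels were 0.223 to 3.52 CPM in WT and 0.275 to 0.917 CPM in homo lenses, and without the library Cryab WT 1, which held the highest of these, the difference was 3.32 and was still called. Gadd45a differed by 2.18 (adjusted p = 0.001) and Ccng1 by 2.34 (adjusted p = 0.00109). These 3 kept their calls in each of 12 fits without 1 library.

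The other 2 genes had a lower change in the Cryaa line. Cdca2, a regulator of chromatin at mitotic exit, differed by -1.41 (adjusted p = 0.0342) and Cdca5 (sororin), which holds sister chromatids together, by -1.99 (adjusted p = 0.0495). Cdca2 lost its call in 7 and Cdca5 in 11 of 12 fits without 1 library. Line and age cannot be told apart in any of these differences.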

How the results depend on the processing

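Under each alternative run, 28 to 39 members were called lower in 14-day-old than in 2-day-old WT lenses, counting those tested only through the 2-day-old libraries. Of the 28 that reached the count minimum at both ages it was 20 to 28, and 20 to 22 without 1 library. The 39 came from scaling by totals alone, which called 82.1% of all genes lower. Leaving out 1 library gave 28 to 32 members and 6.05% to 11.6% of all genes. Scaling by totals moved the median of all genes to -1.61 and the medians of all tested S-phase and mitosis members to -2.95 and -4.06. With this shift, which all genes share, Dbf4 (-0.71), Rpa1 (-0.11) and Pttg1 (-0.23) stood below 0. Without the day-2 libraries over 70 CPM of retinal markers, an alternative chosen after seeing the data, the median of all tested S-phase members was -1.10. It was -1.04 for the 14 that reached the count minimum at both ages.

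For Cryaa-R49C-homo against WT, 1 member was called in the model of all libraries and 0 with library totals alone, with the 6 or the 9 libraries, and without the high-retina libraries. The log2 fold change of this member, Gins2, was -1.31 in that model, -1.28 and -1.29 with the 6 and the 9 libraries, and -1.39 without the high-retina libraries (adjusted p = 0.0502). Leaving out 1 library gave 0 to 5, where 2.77% to 12.3% of all genes were lower. With totals alone the medians became 0.24 (S-phase) and 0.00 (mitosis). Without the high-retina libraries the mitosis median was -0.08, and without 1 library it ran from -0.43 to -0.08.

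For homo against het, 5 members (3.63% of all genes) became 8 with all genes of at least 1 count (2.46%), 10 with DESeq2 (5.09%), 11 with the likelihood-ratio test (11.9%), and 0 with totals alone, with the 6 or the 9 libraries and without the high-retina libraries, where the mitosis median was -0.40. Leaving out 1 library gave 0 to 14 members, where 1.64% to 15.3% of all genes were lower, and mitosis medians of -0.86 to -0.40. For the difference between the lines, 0 became 2 with the likelihood-ratio test (7.02% of all genes lower) and 1 with the replicate block (2.28%). Without 1 library it was 0 to 2, the 2 being without Cryaa-R49C-homo 1 (7.76%). The cause of these shifts was not tested. The replicate numbers were not shown to pair libraries. The block gave 7 members for homo against het (4.63% of all genes lower), with Cenpa and Rrm2 added, and 1 for Cryaa-R49C-homo against WT (5.55%). The members held few counts per library at 14 days, which limits the precision there.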
